A study of Mus musculus with 2 samples.

Results

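The interleukin-1 (IL-1) family genes Il1a, Il1b, Il1rn, Il1r1, Il1r2, Il18, Il18bp, Il33, Il1rl1 and Il1rap were followed across the cells of MC38 tumours from mice given SHP099 and from control mice. These 10 genes were chosen by symbol among the 31053 features of each count matrix, and each symbol belonged to 1 feature. MC38 is a mouse colon carcinoma line, grown here under the skin of the flank of C57BL/6 mice. SHP099 is an allosteric inhibitor of the phosphatase SHP2, and the study asked how the cells of the tumour differ after it. Mice of the SHP099 group received 5 mg/kg into the stomach daily for 14 days. Control mice received PBS over the same time, and a label also calls them untreated. All mice carried MC38 tumours that averaged 100 mm3 when the 2 groups of 6 mice were formed, 5 days after injection, with no age or sex in the labels. Each group gave 1 single-cell library. The labels do not say how many of its tumours entered that library, so intervals cover counting error only, and no difference between the libraries has a replicate check.

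IL-1 family cytokines are alarm signals of inflammation. Il1a and Il1b encode IL-1α and IL-1β, which bind the receptor Il1r1 together with the shared co-receptor Il1rap and signal through MYD88 and IRAK kinases to NF-kB. Il1rn encodes the receptor antagonist that occupies Il1r1 without signalling, and Il1r2 encodes a decoy receptor that binds IL-1 without passing the signal on. Il18 encodes IL-18, which acts on T and NK cells and is neutralised by the secreted protein of Il18bp. Il33 encodes IL-33, a nuclear protein of stromal cells that is released on damage, and Il1rl1 encodes its receptor ST2. ST2 is best known on regulatory T cells, mast cells and type 2 innate lymphoid cells, and a shorter transcript of the same gene encodes a soluble form that captures IL-33.

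The promoters of the members on which the results turn are shown here. Il1b gave most of the cytokine RNA, Il1rl1 has 2 starts in the RefSeq set used here, and Il18bp was lower in every cluster of both large classes. Which Il1rl1 start was used in these cells was not measured. Windows of 250 bases before to 50 after a start were available in the RefSeq table for GRCm38.p6 for all 10 members, 15 windows in all. Each window was searched on both strands for TATAAA (the TATA box), TGANTCA (AP-1), AGATAA and TGATAA (the letters of GATA factors), TTGNGNAA (C/EBP), TTCNNNGAA (GAS) and the NF-kB site. Capitals mark the matches, none of which overlap in these 4 windows. They run 5′ to 3′ on the strand of the gene, Il1b at chr2:129371090-129371389 (minus strand), Il1rl1 distal at chr1:40429320-40429619 (plus), Il1rl1 proximal at chr1:40439379-40439678 (plus) and Il18bp at chr7:102018183-102018482 (minus).
Il1b: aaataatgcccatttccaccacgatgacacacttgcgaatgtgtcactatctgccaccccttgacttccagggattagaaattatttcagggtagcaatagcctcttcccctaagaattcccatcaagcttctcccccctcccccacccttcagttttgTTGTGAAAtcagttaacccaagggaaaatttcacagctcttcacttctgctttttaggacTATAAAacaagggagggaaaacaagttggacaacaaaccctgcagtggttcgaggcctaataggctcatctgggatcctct
Il1rl1 distal: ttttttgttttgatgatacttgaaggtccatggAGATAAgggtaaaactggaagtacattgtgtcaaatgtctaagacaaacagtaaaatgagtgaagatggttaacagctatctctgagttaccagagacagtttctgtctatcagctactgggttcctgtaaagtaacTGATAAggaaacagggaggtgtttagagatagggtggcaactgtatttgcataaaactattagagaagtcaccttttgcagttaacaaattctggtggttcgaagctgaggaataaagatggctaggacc
Il1rl1 proximal: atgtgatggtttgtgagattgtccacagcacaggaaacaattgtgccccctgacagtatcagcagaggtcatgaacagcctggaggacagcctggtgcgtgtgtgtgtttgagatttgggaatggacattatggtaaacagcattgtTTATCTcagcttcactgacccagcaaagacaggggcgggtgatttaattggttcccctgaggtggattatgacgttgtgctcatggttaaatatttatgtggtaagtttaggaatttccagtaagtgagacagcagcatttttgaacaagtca
Il18bp: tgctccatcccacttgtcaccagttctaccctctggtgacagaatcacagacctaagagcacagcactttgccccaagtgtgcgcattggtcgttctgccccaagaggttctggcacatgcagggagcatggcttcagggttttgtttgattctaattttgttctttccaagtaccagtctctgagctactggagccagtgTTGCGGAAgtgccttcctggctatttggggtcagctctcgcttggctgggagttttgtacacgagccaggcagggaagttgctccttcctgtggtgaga
The Il1b window held a TATA box from position -31 and a C/EBP match from position -91, counted back from the start. The distal Il1rl1 window held GATA matches from positions -217 and -80, and the proximal window held 1 on the opposite strand from position -103. The Il18bp window held a C/EBP match from position -49. In GENCODE M21 the Il18bp gene begins at 102018690 on the minus strand, so this whole window lies inside the annotated gene, at a downstream start. Among 32544 windows of the same length, 13.6% held the TATA box, 7.79% the AP-1 letters, 11.2% and 8.91% the GATA letters AGATAA and TGATAA, 13.3% the C/EBP, 8.33% the GAS and 4.53% the NF-kB letters. A match describes the letters only.

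On GRCm38 with GENCODE M21, all 10 members are protein-coding. Il1a lies at chr2:129299610-129309972 (minus strand), Il1b at chr2:129364570-129371139 (minus) and Il1rn at chr2:24336853-24351494 (plus). The receptor genes Il1r2 (chr1:40074079-40125231), Il1r1 (chr1:40225080-40317257) and Il1rl1 (chr1:40429570-40465415) follow each other on the plus strand of chromosome 1, and Il1rap lies at chr16:26581704-26730117 (plus). Il18 lies at chr9:50554827-50581840 (plus), Il18bp at chr7:102014885-102018690 (minus) and Il33 at chr19:29925114-29960718 (plus). Il1rl1 has 4 transcripts in the basic annotation. Il1rl1-205, which begins at the distal start, and Il1rl1-203 end at 40446723 and 40448148, and Il1rl1-202 and Il1rl1-201 run on to 40465415 and 40465396. UMIs (unique molecular identifiers, each 1 captured RNA molecule) were counted per gene, so the short and long forms were not told apart.

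The SHP099 library held 112901642 UMIs in 8263 barcodes and the control library 126218180 UMIs in 8245 barcodes, and 7689 cells of each passed the filters and doublet removal. Cells were clustered without the 10 members and the pathway genes used below. A group of 6 clusters with almost no Xist RNA (3.04 CPM in SHP099 and 2.80 CPM in control, CPM being UMIs scaled to the UMI total of the class) held 4296 SHP099 and 4190 control cells. They carried Hmga2 (82.1 and 108 CPM) and Igf2bp2 (47.7 and 50.3 CPM) of the MC38 markers, but Epcam and Krt19 were at 0 and only 5 of the 11 markers reached 10 CPM, so they are called Xist-negative cells by that rule. The 11 markers summed to 543 and 611 CPM in them, and to 432 and 377 CPM in fibroblasts. Fibroblasts were the closest marker list for all 6 clusters. In 1 of them, led by Aspn and Ogn, 4 fibroblast markers passed, and only the Xist rule kept it from that name. Mononuclear phagocytes (macrophages and monocytes) numbered 2755 and 2671, T cells 398 and 520, NK cells 54 and 97, dendritic cells 80 and 85, fibroblasts 49 and 82 and endothelial cells 45 and 30. Only the first 3 classes had 200 cells in each library and were compared; the rest are described by their UMIs. No cluster took the name of neutrophils, mast cells, basophils, type 2 innate lymphoid cells or B cells. In the libraries 100 barcodes were shared. Haemoglobin RNA was higher in SHP099 in the 3 compared classes (21.6 and 2.05 CPM in phagocytes, 131 and 30.7 in Xist-negative cells, 315 and 22.6 in T cells), and its part in the results was not tested.

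The family divided between myeloid, stromal and Xist-negative cells, for most members in like shares in both libraries, with Il33 as the widest exception. Phagocytes held 92.2% of the Il1b UMIs in SHP099 and 90.3% in control, 96.6% and 94.9% of Il1a, 94.7% and 93.2% of Il1rn, and 65.5% and 66.4% of Il1r2. Xist-negative cells held 98.6% and 98.7% of the Il1rl1 UMIs and 95.3% and 95.2% of Il1rap. Il33 and Il1r1 had their highest CPM in fibroblasts, but Xist-negative cells held 46.8% of the Il33 UMIs in SHP099 and 17.6% in control, and fibroblasts 50.7% and 80.8%. Il18 came from phagocytes (56.3% in SHP099 and 48.2% in control) and Xist-negative cells (42.5% and 50.5%). Il18bp was split, with 56.1% and 55.1% of its UMIs in Xist-negative cells and 42.9% and 43.9% in phagocytes. Xist-negative cells held 92242113 of the 107696171 UMIs kept in SHP099 and 104306755 of 119822867 in control, so their shares reflect class size too. Per UMI, Il18 was 39.1 and 30.5 CPM in phagocytes and 4.11 and 3.74 CPM in Xist-negative cells. Il18bp was 133 and 180 CPM against 24.3 and 26.4 CPM. Il1rap was 27.9 and 28.4 CPM in Xist-negative cells and 25.8 and 25.6 CPM in fibroblasts, with overlapping intervals.

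**Figure D1:**
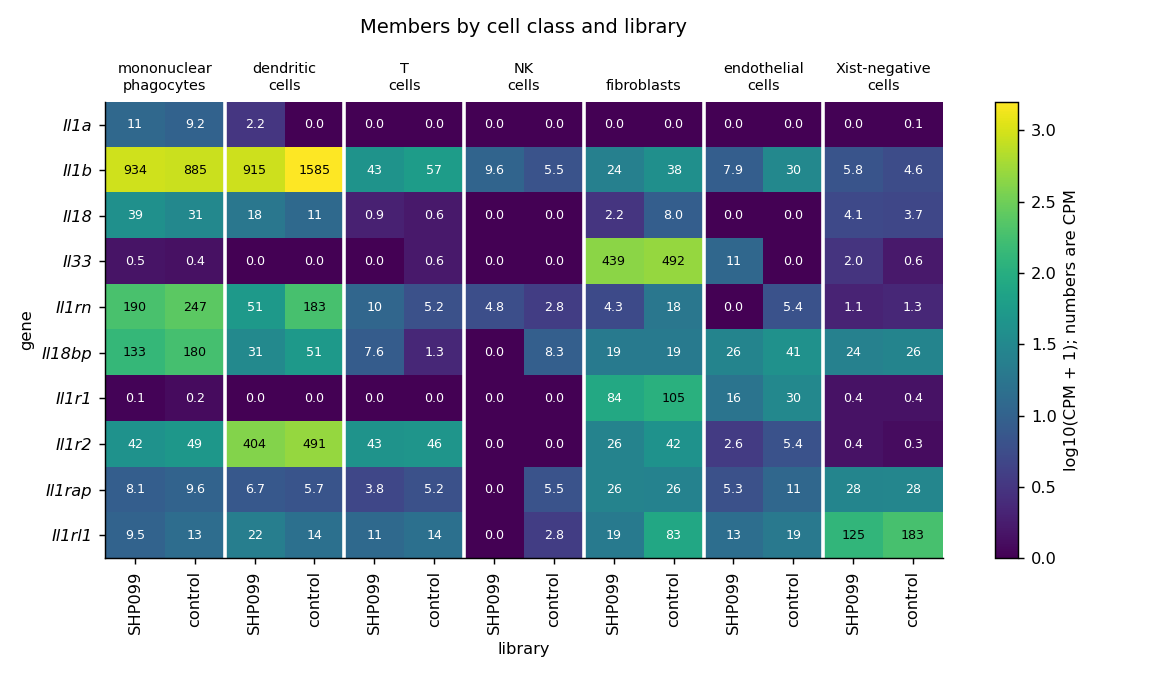
Level of each member (rows) in 7 cell classes, with the SHP099 library left of control in each pair; colour is log10(CPM + 1) and the printed numbers are CPM of UMIs summed over the class. Il1b is high in both phagocytes and dendritic cells, Il1rn and Il18bp are high in phagocytes, and Il1r2 stands out in dendritic cells, Il33 and Il1r1 in fibroblasts and Il1rl1 in Xist-negative cells.

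In the phagocytes, the cytokine Il1b was nearly the same in both libraries while the antagonists Il1rn and Il18bp were lower in SHP099, by less than 1.5-fold. Il1b had 11985 UMIs in SHP099 and 10791 in control, or 934 CPM (95% Poisson interval 917 to 951) and 885 CPM (868 to 902), a log2 ratio of 0.08 (0.04 to 0.12). Il1rn had 190 CPM (182 to 197) in SHP099 and 247 CPM (239 to 256) in control, a log2 ratio of -0.38 (-0.46 to -0.31). Il18bp had 133 CPM (127 to 140) and 180 CPM (173 to 188), a log2 ratio of -0.43 (-0.53 to -0.34). The Poisson intervals of the libraries do not overlap for Il1b, Il1rn or Il18bp. With each cell weighted alike, the log2 ratio of Il1b turned to -0.05, and with its UMIs drawn down to 2000 per cell, Il1b was found in 54.5% of SHP099 and 57.6% of control phagocytes, so no order is read for it.

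A gene was called where the libraries differed at least 1.5-fold and the interval of the ratio left out 0, among genes at 10 CPM or more in either library. Of the 6844 genes tested in phagocytes, 4.15% were called higher and 1.78% lower in SHP099. Of the 10 members 7 were tested, none was called, and their median log2 ratio was -0.21 against 0.04 over all genes tested. Among all tested genes, 5.48% had a log2 ratio as low as that of Il1rn or lower, and 4.18% one as low as that of Il18bp. Both antagonists were lower in 6 of 6 phagocyte clusters, as were 4.78% of the genes tested, while 7.48% were higher in all 6. The number of Il1b UMIs per Il1rn UMI was 4.93 (4.72 to 5.15) in SHP099 phagocytes and 3.58 (3.43 to 3.72) in control. That gap was not shared by all clusters. The ratio was 1.71 (1.55 to 1.88) in SHP099 and 1.70 (1.58 to 1.83) in control Arg1/Mmp12 cells, a low-ratio cluster of 655 SHP099 and 899 control cells, and 4.47 (4.09 to 4.88) and 4.18 (3.77 to 4.64) in Cd72/Ms4a7 cells. It was higher without overlap of the intervals in Ly6i/Ccr2 cells (6.94, 6.44 to 7.48, in SHP099 and 5.08, 4.75 to 5.44, in control) and Chil3/Plac8 cells (8.33, 6.87 to 10.2, and 4.73, 4.14 to 5.41).

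The other cytokines of phagocytes were scarcer. Il18 had 502 UMIs in SHP099 and 372 in control, or 39.1 CPM (35.8 to 42.7) and 30.5 CPM (27.5 to 33.8), a log2 ratio of 0.35 (0.16 to 0.56), and 11.7% of tested genes had one as high or higher. Il1a had 140 and 112 UMIs, or 10.9 and 9.18 CPM, and its log2 ratio of 0.24 had an interval that spans 0 (-0.12 to 0.62). The decoy receptor Il1r2 had 41.9 CPM (38.5 to 45.6) in SHP099 and 48.7 CPM (44.9 to 52.8) in control, a log2 ratio of -0.21 (-0.39 to -0.05). The signalling receptor Il1r1 was nearly missing from phagocytes, with 1 UMI in SHP099 and 3 in control, and Il33 had 6 and 5. Il1rap had 8.11 and 9.59 CPM and was below the 10 CPM needed for a test.

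**Figure D2:**
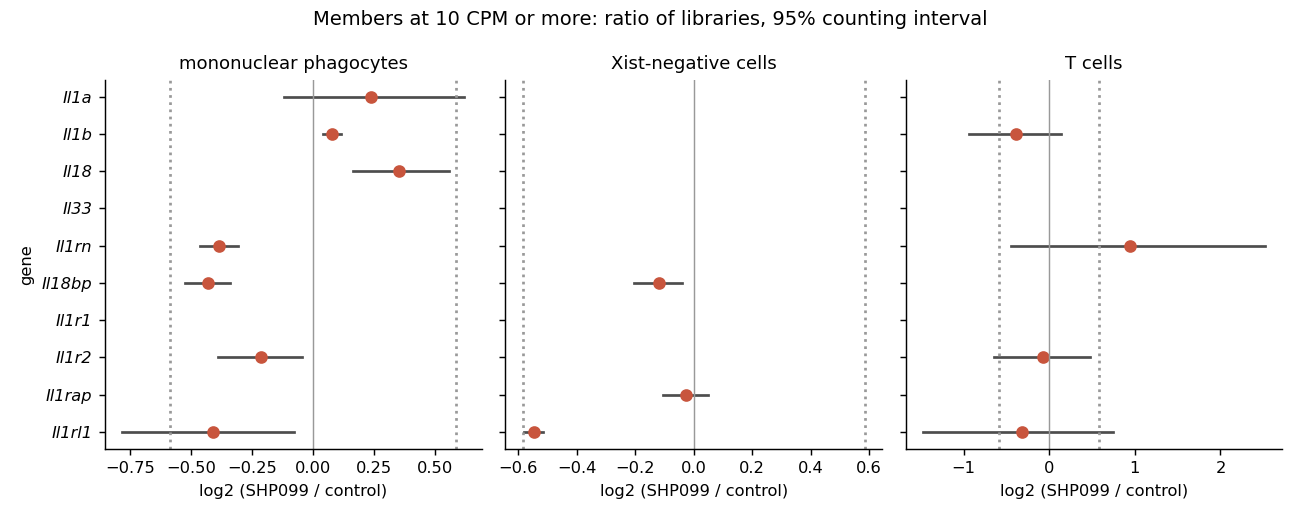
Log2 ratio of SHP099 over control (x axis, points) with its exact 95% counting interval (lines) for members at 10 CPM or more in phagocytes, Xist-negative cells and T cells; dotted lines mark 1.5-fold and the x scales differ. Points left of 0 are lower in SHP099, as for Il1rn and Il18bp in phagocytes and Il1rl1 in Xist-negative cells.

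Within the phagocytes the members followed different cells. Clusters are named here by 2 of their leading genes. Il1b was highest in the monocyte-like Chil3/Plac8 cluster (1894 CPM in SHP099 and 2051 in control) and the Ly6i/Ccr2 cluster (1965 and 1703), and lower in Cd72/Ms4a7 (715 and 674), Cx3cr1/Fcrls (788 and 573) and Arg1/Mmp12 cells (347 and 431). Il1b was thus higher in SHP099 in 4 clusters and lower in 2. Il1r2 shared its highest clusters, at 129 and 131 CPM in Ly6i/Ccr2 cells and 77.7 and 106 CPM in Chil3/Plac8 cells. Il18 was also highest in Chil3/Plac8 cells (89.4 and 70.7 CPM), and its widest gap lay in Ly6i/Ccr2 cells, at 38.4 CPM in SHP099 (31.5 to 46.3) and 21.2 CPM in control (16.4 to 27.1).

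Il1rn was lowest relative to control in Chil3/Plac8 cells, at 227 CPM in SHP099 (188 to 272) and 434 CPM in control (384 to 489), a log2 ratio of -0.93. In Cd72/Ms4a7 cells it was 160 and 161 CPM, with a log2 ratio of -0.01 (-0.19 to 0.17). Il18bp had another order. It was highest in Cd72/Ms4a7 cells (214 and 267 CPM) and Arg1/Mmp12 cells (137 and 195 CPM), and its lowest log2 ratio, -0.82 (-1.06 to -0.58), was in Ly6i/Ccr2 cells (79.3 and 140 CPM). Il1a was thinly spread. It was lowest in Cd72/Ms4a7 cells (4.31 CPM in SHP099 and 1.07 CPM in control) and highest in Arg1/Mmp12 cells in SHP099 (17.4 CPM, against 13.7 in control) and in Chil3/Plac8 cells in control (25.7 CPM, 14.7 to 41.8, against 11.7 CPM, 4.28 to 25.4, in SHP099), the last from 6 SHP099 and 16 control UMIs. The summed level of 8 neutrophil markers in phagocytes was 43.0 CPM in SHP099 and 123 CPM in control, with S100a8 at 12.2 and 55.2 CPM and Ly6g at 0 in both. Its part in the Il1rn, Il1r2 and Il1b values was not tested.

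**Figure D3:**
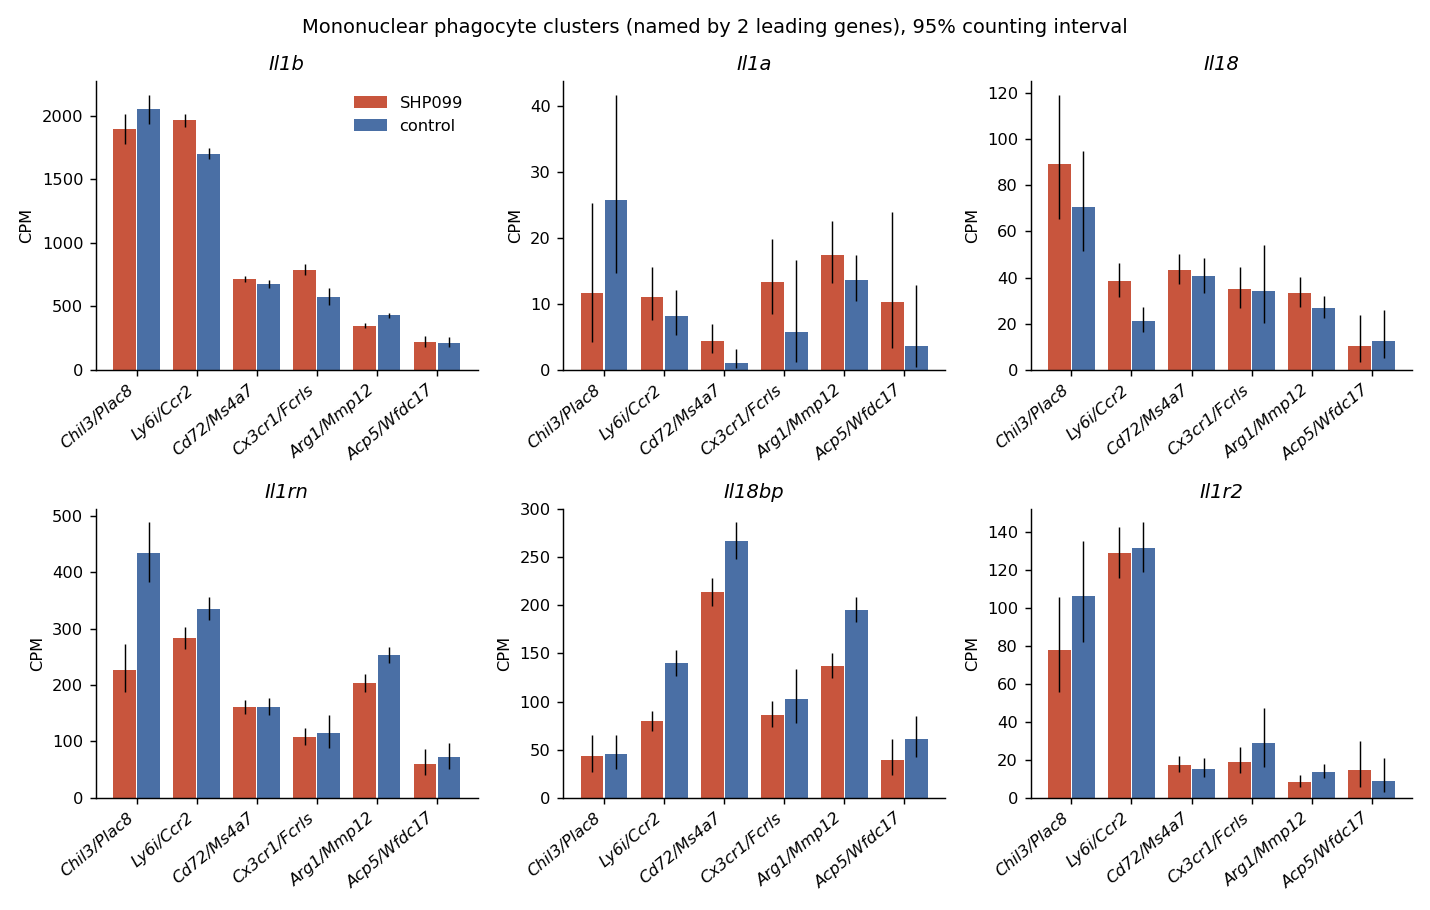
CPM (bar height, from 0) of Il1b, Il1a, Il18, Il1rn, Il18bp and Il1r2 in 6 phagocyte clusters named by leading genes, SHP099 left of control, with exact 95% Poisson intervals. Il18bp and Il1rn bars are lower in SHP099 in all 6 clusters, by almost nothing for Il1rn in Cd72/Ms4a7 cells.

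At 2000 UMIs per cell, Il1r2 was found in 8.96% of Il1b-positive and 1.90% of Il1b-negative phagocytes in SHP099, and in 11.5% and 2.30% in control. Il1rn was found in 27.0% of Il1b-positive and 20.5% of Il1b-negative phagocytes in SHP099, and in 35.2% and 26.2% in control. Il18bp went the other way, with 18.6% and 24.4% in SHP099 and 24.3% and 27.5% in control. The binomial intervals of Il1b-positive and Il1b-negative cells did not overlap in either library for Il1r2 and Il1rn, and overlapped in control for Il18bp, and these cells of 1 library each are described without a test. Over 33 cluster and library points, the genes whose log2(CPM + 1) was most like Il1b were Csf2rb (Pearson r 0.98), Alox5ap (0.98) and Il1rn (0.98), and those most like Il1rn were Fcgr1 (0.99), Nlrp3 (0.98) and Csf2rb (0.98). These points share libraries and cell classes. Over the 12 phagocyte points alone, Ncf4 (0.95), Rap1a (0.94) and Coro1a (0.94) were most like Il1b.

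The genes that cleave and release IL-1β and IL-18 were measured in phagocytes, and none passed the call. Of 16 inflammasome and processing genes 13 were tested and none was called, with a median log2 ratio of -0.04. The sensor Nlrp3 had 94.5 CPM in SHP099 and 105 in control, the adaptor Pycard 315 and 328, and the protease Casp1 54.2 and 55.4. Panx1 (0.37) and Aim2 (0.21) had the highest log2 ratios of the list, and Casp4 (-0.33) and Nlrp3 (-0.15) the lowest. Of 26 genes that signal below the receptors 23 were tested and none was called. Mapk14, a stress kinase, had the highest log2 ratio (0.55), then Nfkbiz (0.30), and Irak2 (-0.44) and Traf6 (-0.38) the lowest.

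Among genes known to respond to IL-1, 10 of 21 were tested in phagocytes, 2 were called higher and 2 lower. The monocyte chemokine Ccl7 had 916 CPM in SHP099 and 501 in control, a log2 ratio of 0.87 (0.82 to 0.91), and the acute-phase gene Saa3 had 10.2 and 6.56 CPM (0.60, 0.23 to 1.06). The neutrophil chemokine Cxcl2 had 1490 and 2478 CPM, a log2 ratio of -0.73 (-0.76 to -0.71), and Cxcl3 had 14.4 and 26.2 CPM (-0.84, -1.13 to -0.60). Ptgs2, which makes prostaglandin precursors, was 154 CPM in SHP099 and 165 in control. The list did not move 1 way. Of the IL-33 response list 2 genes were tested in phagocytes, and Il10 was called lower (6.78 CPM in SHP099 and 12.4 CPM in control) while Rnf128 was not (9.82 and 13 CPM). Of the IL-18 response list 3 were tested and none was called.

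The ST2 gene Il1rl1 was found mainly in Xist-negative cells and was lower there in SHP099. It had 11536 UMIs in SHP099 and 19070 in control, or 125 CPM (123 to 127) and 183 CPM (180 to 185), a log2 ratio of -0.55 (-0.58 to -0.51). This is short of 1.5-fold, so Il1rl1 was not called, although its log2 ratio lay past 1.5-fold (-0.61) with each cell drawn down to 2000 UMIs. Of the 7035 genes tested in these cells, 1.12% were called higher and 0.227% lower, and 24 genes (0.341%), Il1rl1 among them, had a log2 ratio as low or lower. Drawn down to 10000 UMIs, 48.4% of 3795 SHP099 cells and 59.3% of 3641 control cells had an Il1rl1 UMI, and 16.5% and 24.4% had 3 or more. Without drawing down, the shares were 61.1% and 73.6%.

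Il1rl1 was lower in SHP099 in 6 of 6 Xist-negative clusters, as were 13% of the genes tested, while 16.4% were higher in all 6. The highest levels were in Ptn/H19 cells (148 CPM in SHP099 and 221 in control) and dividing Top2a/Aurkb cells (143 and 206 CPM), then Aspn/Ogn (127 and 201) and Nppb/Hmga1 cells (123 and 174). Mme/Bdnf cells had 88.1 and 132 CPM. The lowest level and the smallest gap were in Bnip3/Ankrd37 cells, led by genes known to respond to low oxygen, at 75 CPM (69.1 to 81.1) and 92.4 CPM (85.0 to 100), a log2 ratio of -0.30 (-0.47 to -0.14). In the other clusters the log2 ratios ran from -0.65 to -0.49, and the intervals of the libraries did not overlap in any of the 6. As a measure of free RNA, phagocytes had an Il1rl1 UMI in 1.36% of SHP099 and 2.04% of control cells at 2000 UMIs, against 19.4% and 26.8% of Xist-negative cells at that depth.

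**Figure D4:**
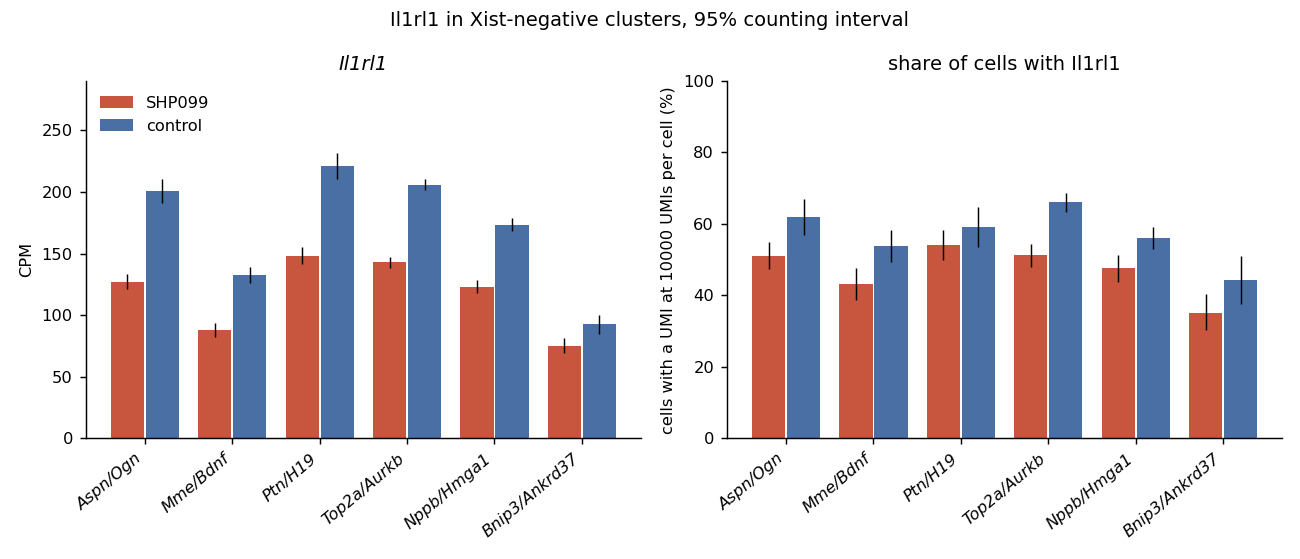
Il1rl1 in 6 Xist-negative clusters named by leading genes, SHP099 left of control, as CPM (left panel, bars from 0) and as the share of cells with a UMI after drawing each cell down to 10000 UMIs (right panel, %), with exact 95% counting intervals. SHP099 bars are lower in every cluster on both scales, with the lowest levels in Bnip3/Ankrd37 cells.

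The co-receptor Il1rap differed little in the same cells, at 27.9 CPM in SHP099 (26.8 to 29.0) and 28.4 CPM in control (27.4 to 29.4), a log2 ratio of -0.03 (-0.10 to 0.05). Il1r1, the partner of Il1rap in IL-1 signalling, had 39 and 45 UMIs in all Xist-negative cells, or 0.423 and 0.431 CPM. Il18bp had 24.3 CPM (23.3 to 25.3) and 26.4 CPM (25.4 to 27.4), a log2 ratio of -0.12 (-0.20 to -0.04). Within the 6 clusters it was lower by more, with log2 ratios from -0.60 to -0.29, and with clusters weighted alike the ratio was -0.34. Of the genes tested, 13% were lower in all 6 clusters, and 19.7% had a class log2 ratio as low as that of Il18bp or lower. The clusters where Il18bp was highest, Aspn/Ogn (45.6 and 55.8 CPM) and Ptn/H19 (38.4 and 47.8 CPM), held 817 and 761 cells in SHP099 and 471 and 467 in control. Of 10 members 3 were tested and none was called, and their median log2 ratio was -0.12 against 0.03 over all genes tested.

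Il33 was rare in Xist-negative cells, with 188 UMIs in 86 SHP099 cells and 67 UMIs in 31 control cells, or 2.04 CPM (1.76 to 2.35) and 0.642 CPM (0.498 to 0.816). Up to 14 of these UMIs lay in 1 SHP099 cell and up to 19 in 1 control cell. The cells with Il33 had 5.05 and 2.27 CPM of Xist, against 953 and 1011 CPM in fibroblasts. Col1a1, a fibroblast collagen, had 116 CPM in SHP099 and 20.5 CPM in control cells with Il33, and 28.5 and 12.8 CPM in those without. Il1b had 5.81 and 4.60 CPM in Xist-negative cells, with 5.47 Il1b UMIs per Il1rn UMI in SHP099 (4.40 to 6.85) and 3.61 in control (2.97 to 4.41), intervals that hold the ratios seen in phagocytes. Il18 had 4.11 and 3.74 CPM.

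Downstream genes of the pathway did not pass the 1.5-fold call in Xist-negative cells. Of the list of signalling genes 19 were tested, with Nfkbiz (0.21) and Mapk8 (0.13) highest and Nfkbib (-0.25) and Tnfaip3 (-0.21) lowest on the log2 scale. Of the IL-1 response list 7 were tested. Ptgs2 had 116 CPM in SHP099 and 80.9 in control (log2 ratio 0.51, 0.47 to 0.56) and Ccl7 267 and 208 CPM (0.36), while Cxcl1 was 723 and 719 CPM and Cxcl2 13.1 and 15.9 CPM. Of the inflammasome and processing list 7 were tested and none called, from Capn1 (-0.21) and Capn2 (-0.21) to Txnip (0.28) and Nek7 (0.28). Of the IL-33 response list 0 genes reached 10 CPM, and of the IL-18 response list Nr4a1 did and was not called. Over all 33 points Il1rl1 was most like Matn2 (Pearson r 0.94), Laptm4b (0.94) and Pfn2 (0.94), and within the 12 Xist-negative points most like Ccdc25 (0.91), Git1 (0.90) and Vash2 (0.89).

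As a class, fibroblasts (49 SHP099 and 82 control cells) carried both the receptor Il1r1 and the ligand Il33. Their detection in the same cells was not counted. Il1r1 had 83.9 CPM (59.7 to 115) in SHP099 and 105 CPM (81.6 to 134) in control, and was found in 25 and 32 cells. Il33 had 439 CPM (381 to 503) and 492 CPM (439 to 550), in 31 and 51 cells. The intervals of the libraries overlap for both genes. Il1rl1 had 9 UMIs in 7 SHP099 fibroblasts and 52 UMIs in 22 control fibroblasts, or 19.4 CPM (8.85 to 36.8) and 83.1 CPM (62.0 to 109). Those intervals do not overlap, although the shares of cells with a UMI, 14.3% (5.94 to 27.2%) and 26.8% (17.6 to 37.8%), do. The fibroblasts with Il1rl1 had 843 and 1080 CPM of Xist, and Hmga2 was at 8.88 CPM in the SHP099 ones and 0 in the control ones. In fibroblasts without Il1rl1, Hmga2 was at 0 CPM in SHP099 and 10.6 CPM in control. With so few cells, no order is read for Hmga2. Epcam was at 86.1 CPM in SHP099 fibroblasts and 0 in control, and the part of that RNA in these values was not tested. Il1r2 had 25.8 and 41.5 CPM, and Il1rap 25.8 and 25.6 CPM.

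Endothelial cells were next for Il1r1, at 15.8 CPM (5.81 to 34.5) in 45 SHP099 cells and 29.8 CPM (14.9 to 53.3) in 30 control cells. Their Il33 amounted to 4 UMIs in SHP099 and 0 in control, where 0 UMIs allow up to 8.12 CPM at 3 counts. The genes most like Il33 across the 33 points were Nrep (Pearson r 0.98), Fndc1 (0.96) and Nov (0.95), and those most like Il1r1 were Dio2 (0.97), Serpina3n (0.97) and Fndc1 (0.96). Of the fibroblasts only the control library gave a point, since clusters under 50 cells in a library were left out. Endothelial cells gave none. In the other classes with points, the class level was at most 0.431 CPM for Il1r1 and 2.04 CPM for Il33. The correlations of both genes thus rest mainly on that 1 fibroblast point.

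Dendritic cells had the highest Il1r2 level of any class, at 404 CPM (347 to 467) in 80 SHP099 cells and 491 CPM (421 to 570) in 85 control cells, where the intervals overlap. Il1b there was 915 CPM (828 to 1007) in SHP099 and 1585 CPM (1456 to 1723) in control, and Il1rn 51.1 CPM (32.4 to 76.6) and 183 CPM (141 to 233). Neither pair of intervals overlaps. These are 412 and 555 Il1b UMIs and 23 and 64 Il1rn UMIs from few cells. Markers of migratory dendritic cells summed to 1370 CPM in SHP099 and 2196 CPM in control, and macrophage markers to 1887 and 1422 CPM. The conventional dendritic cell lists cDC1 (1068 and 1062 CPM) and cDC2 (613 and 674 CPM) differed less. The part of this make-up in the Il1b and Il1rn values was not tested. The leading genes of the cluster included Ccl22, Ccr7 and Cd209a, and it was not divided further. The genes most like Il1r2 were Lsr (Pearson r 0.93), Pmaip1 (0.93) and Cd80 (0.91).

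T cells carried the receiving side of IL-18. Il18r1, which binds IL-18, had 59.6 CPM (45.8 to 76.2) in SHP099 and 60.8 CPM (49.2 to 74.4) in control, and 33.7 and 49.9 CPM in NK cells. Its partner Il18rap had 25.5 CPM (16.8 to 37.1) and 42.1 CPM (32.5 to 53.6) in T cells, from 27 and 65 UMIs, a log2 ratio of -0.71 (-1.43 to -0.05), and it was called lower. In T cells 4.87% of the 6942 genes tested were called higher and 2.07% lower. Of the 8 genes taken to respond to IL-18, Csf2 (18.9 and 2.59 CPM, from 20 and 4 UMIs), Nr4a1 (192 and 123 CPM) and Il2ra (81.3 and 53.7 CPM) were called higher, while Ifng had 111 and 133 CPM and Gzmb a log2 ratio of -0.19. The kinases Irak1 (23.6 and 40.1 CPM) and Irak2 (14.2 and 30.4 CPM) were called lower, 2 of 23 signalling genes tested. None of the 10 inflammasome and processing genes tested in T cells was called, and of 7 IL-1 response genes Csf2, which is in both response lists, was. The T cell class held more regulatory T cells in SHP099 (102 of 398 cells) than in control (81 of 520), and the summed level of 8 of their markers was 2809 and 2034 CPM. Without them Csf2, Nr4a1, Irak1 and Irak2 kept their calls. Il2ra and Il18rap lost theirs, Il2ra at 37.2 CPM in SHP099 and 28.1 in control (log2 ratio 0.40, -0.32 to 1.12) and Il18rap at 30.3 and 46.8 CPM (-0.62, -1.35 to 0.05). Within the regulatory T cells Il2ra was 272 and 279 CPM. The share of all genes called was not computed for T cells without regulatory T cells, so calls made there have no base share.

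Of the members, 4 were tested in T cells, none was called, and all 4 intervals span 0. Il1r2 had 43.5 CPM (31.8 to 58.0) and 45.9 CPM (35.9 to 58.0). Among clusters of T and NK cells it was concentrated in regulatory T cells (106 CPM in 102 SHP099 cells and 184 CPM in 81 control cells) and, in SHP099, in a cluster led by Ramp3 and Tnfsf11 (140 CPM from 13 UMIs in 39 SHP099 cells, against 33.3 CPM from 9 UMIs in 101 control cells). In control 16 of the 71 Il1r2 UMIs of T cells lay in 1 cell. Only the regulatory T cells, with 29, held that many, so much of their 184 CPM rests on 1 cell. In a cluster led by Lef1 and Tcf7 no Il1r2 UMI was found in 85 SHP099 and 105 control cells. Il1rl1 had 12 UMIs in SHP099 and 22 in control T cells, of which 4 and 5 lay in the regulatory T cells. At 2000 UMIs, 1.98% and 2.42% of the T cells that reached this depth carried an Il1rl1 UMI, against 1.36% and 2.04% of such phagocytes. Median UMIs were 2036 in SHP099 and 2396 in control T cells, and 1522 and 1564 in the regulatory T cells. Most regulatory T cells were thus left out of that share. In the regulatory T cells Il1rl1 had 20.2 CPM (5.49 to 51.6) in SHP099 and 31.7 CPM (10.3 to 73.9) in control, and in the other T cells 9.31 and 12.3 CPM. The counts are too few to place the regulatory T cells above the other cells or to order the libraries. Areg, which IL-33 is known to induce in such cells, had 349 CPM in SHP099 and 103 CPM in control T cells (log2 ratio 1.76, 1.49 to 2.04) and was called higher. Calca (18.0 and 3.88 CPM, from 19 and 6 UMIs) was also called higher, making 2 of 5 genes tested from the IL-33 response list. Regulatory T cells were 25.6% of T cells in SHP099 and 15.6% in control. Within them Areg was 1527 and 595 CPM (log2 ratio 1.36, 1.02 to 1.71) and in the other T cells 76.8 and 46.8 CPM (0.71, 0.20 to 1.23), called higher in both, a division made after seeing the data. Calca had 5 and 0 UMIs in the regulatory T cells, where it was not called. In the other T cells it had 14 and 6 UMIs and was called higher. The share of all genes called was not computed for either part.

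The T cell class also gave 46 Il1b UMIs in SHP099 and 88 in control. A cluster of 3 SHP099 and 7 control barcodes, led by dendritic cell genes such as Mgl2 and Cd209a, held 37 and 77 of them, with 9 and 11 Il1r2 UMIs (333 and 308 CPM). Without those barcodes Il1b was 8.73 CPM in SHP099 (3.99 to 16.6) and 7.29 CPM in control (3.64 to 13), and Il1r2 was 35.9 and 39.7 CPM.

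A low-depth phagocyte cluster (Acp5/Wfdc17, 124 SHP099 and 129 control cells with medians of 1001 and 1388 UMIs) carried Il1rl1 at 65.6 and 75.2 CPM and less Xist than other phagocytes (424 and 328 CPM). Without it Il1rl1 in phagocytes was 7.29 CPM in SHP099 and 9.80 CPM in control, and Il1b, Il1rn and Il18bp had log2 ratios of 0.07, -0.39 and -0.44. Of the 6796 genes tested without it, 4.37% were called higher and 1.87% lower, and no member was called.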

How the data were processed

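Tumours were dissociated without a stated sorting step and put through the 10x Chromium 3′ protocol, per the labels. The authors deposited filtered matrices of whole-number UMI counts. The submitters' processing notes name Cell Ranger and the build mm10 (GRCm38), and the file headers give output format 3.1.0; no source used here gives the annotation. The same build was used for positions (GENCODE M21) and promoters (RefSeq, GRCm38.p6).

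The deposited counts were used as they stand. Barcodes with under 200 genes (103 in SHP099, 99 in control) or over 20% mitochondrial UMIs (260 and 194) were removed. Scrublet then removed 211 and 263 doublets (2.67% and 3.31%, fewer than the 6.32% and 6.36% expected). Leiden clustering (resolution 1.0, seed 1, 2000 variable genes, 30 components, 15 neighbours) joined both libraries without integration and without the members and the 6 pathway lists. A cluster was named by a marker list with at least 3 markers each detected in 10% of its cells and 2 times above other cells. Clusters with Xist under 0.1 of the 75th percentile of clusters were kept apart.

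UMIs were summed per class and library, scaled to CPM with exact Poisson intervals, and compared as a log2 ratio with a prior of 0.5 CPM and an exact conditional binomial interval that leaves the prior out. UMIs tag molecules, so CPM was not divided by gene length. For shares, cells were thinned to 2000 UMIs, or to 10000 in Xist-negative cells (chosen after seeing the data), with exact binomial intervals. Cells with fewer UMIs than the depth drawn were left out. With 1 library per group there was no test and no p-value. The ratio and call were tested on simulated counts. The members, gene lists and naming rule were chosen with earlier results of these data known. All members were named, with the 2 highest and 2 lowest tested genes of each list, a fixed panel and the 3 genes most like each member; members' values within clusters were described after they were seen. Clustering used scanpy 1.11.5, scikit-learn 1.9.0 and igraph 0.11.9, and intervals used scipy 1.17.1.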

Additional observations from a re-analysis of the deposited data

How the results depend on the processing

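The log2 ratios of SHP099 over control were recomputed under 12 alternatives of filtering, clustering, class definition, weighting, scaling, prior and depth, and 13 in phagocytes. Across 20 member and class pairs, 225 of 248 recomputed values stayed within the counting interval of the reported one. In phagocytes Il1b, reported at 0.08, was -0.05 with each cell weighted alike, 0.03 with the median of all genes set to 0 and 0.03 with cells classed by their own markers. Il1a, reported at 0.24, was -0.27 with each cell weighted alike. Il1rn stayed below 0 throughout and was -0.48 with each cell weighted alike and -0.56 when drawn down to 2000 UMIs, and Il18bp was -0.30 when drawn down. In Xist-negative cells Il1rl1 stayed between -0.61 when drawn down to 2000 UMIs, which is past 1.5-fold, and -0.47 with cells classed by their own markers, and Il1b, which was under 10 CPM there, turned to -0.08 when drawn down. The cause of these shifts was not tested. Il1b in T cells ran from -1.30 to 2.49, and rests on the 10 dendritic-like barcodes named above. When doublets were kept, a macrophage cluster stayed unnamed, so phagocytes there held 2618 and 2535 cells. No paired analysis was possible because each group has 1 library. Depth limits the members under 10 CPM and all values of dendritic cells, fibroblasts and endothelial cells.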
